A study of Mus musculus with 13 samples.

Results

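The genes described are 34 genes of endoplasmic reticulum (ER) protein folding and ER stress in the mouse heart. They were taken by gene symbol and by no expression value, but the list was made with earlier results of these data known. Each symbol matched 1 of the 55471 genes in the table. All 34 passed the filter on low counts, which left 15000 genes. Bulk RNA-seq was made from polyA-selected RNA of whole hearts. WT control comprised 5 libraries of wild-type mice without drug. R502W control comprised 4 libraries of mice carrying the R502W change in cardiac myosin-binding protein C (cMyBP-C), a thick-filament protein of the sarcomere, also without drug. R502W mavacamten comprised 4 libraries of mice with the same change that drank mavacamten, an inhibitor of cardiac myosin, at 2.5 mg/kg/day during 21 weeks. The design text states an age of 24 weeks and the extraction protocol speaks of hearts of 3 and 18 weeks, so the age of each library is uncertain. The sources used here do not give zygosity, strain or what the control mice drank. The study set genotype and treatment against each other at the level of gene expression.

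The ER folds membrane and secreted proteins, in cardiomyocytes among other cells the ion channels and receptors of the cell surface and of the sarcoplasmic reticulum. When unfolded proteins accumulate, the sensors ATF6, IRE1 and PERK start the unfolded protein response. ATF6 is cut to release a transcription factor, IRE1 splices the Xbp1 mRNA, and PERK phosphorylates eIF2α, which lowers translation and raises ATF4. The targets include chaperones, disulfide isomerases and the genes of ER-associated degradation (ERAD), which extracts misfolded proteins for the proteasome. Many of these targets carry the ER stress response element (ERSE) in their promoters, which binds ATF6 together with NF-Y. Gene-level counts show neither the splicing of Xbp1 nor the cleavage of ATF6.

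Total counts per library ran from 15350601 to 19361104. Levels are CPM, counts scaled to a common library size after TMM factors, given as mean ± SD over the libraries of a group. Cardiomyocyte markers were high in all 13 libraries, with a sum over 10 genes from 47200 to 86956 CPM. Libraries differed in tissue that is not myocardium. The library WT control 2 had 514 CPM over 8 T lymphocyte and thymus markers, against at most 8.33 CPM in any other library, and its Rag1 stood at 94.0 CPM. Summed markers of B and plasma cells reached 776 CPM in WT control 2, 457 in WT control 3 and 320 in WT control 4, against 24.3 to 228 CPM in the other libraries. Summed lung epithelium markers reached 356 CPM in WT control 2, 562 in WT control 3, 140 in R502W mavacamten 1 and 22.3 in R502W mavacamten 4, and at most 3.45 CPM elsewhere. These sums came mainly from Scgb1a1 and Cyp2f2, the 2 of the 5 markers that passed the filter. Sftpc and Sftpb of the same list reached at most 0.225 and 0.423 CPM in any library. The atrial gene Bmp10 was at 8.33 CPM in WT control 3, 1.57 in R502W control 1 and 6.23 in R502W mavacamten 3, against 307 to 672 CPM elsewhere. The sum over 6 atrial markers was 6363, 5323 and 3077 CPM in these libraries, against 3830 to 8309 CPM elsewhere. It was thus within the range of the others in WT control 3 and R502W control 1, and the lowest of all 13 in R502W mavacamten 3. Myl7 was highest in WT control 3 (1243 CPM). Whether low Bmp10 stands for low atrial content was not tested. WT control 2 was the highest of the 5 WT libraries for 17 of the 34 genes and the lowest for 10. Genotype fold changes that moved by more than 1.5 times without WT control 2 are given with and without it. In bulk tissue, fewer cells of a type and less RNA per cell cannot be told apart.

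Some promoters of the set hold the ERSE, and the matches are shown because they mark the genes named as ERSE carriers in the results. Targets of the unfolded protein response are known to carry it, so its share in this set is no independent result. The RefSeq windows of GRCm38.p6, from 250 bases before to 50 after the start site, covered 27 of the 34 genes. The ERSE, searched as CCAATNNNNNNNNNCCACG on both strands, was in 9 of these 27 (33.3%) and in 39 of all 32851 windows (0.119%). The related ERSE-II, searched as ATTGGNCCACG, was in 2 of the 27 (7.41%) and in 12 of all windows (0.0365%). Both motifs contain CCACG, which by itself was in 23 of the 27 genes and in 32.8% of all windows. The core TGACGTGG, which binds XBP1 and ATF6, was in none of the 27 and in 0.676% of all. The composite TGATGNAAN, bound by ATF4 with a partner, was in 1 of the 27 (Herpud1) and in 3.95% of all. The counts of the 27 are of genes, and those of all are of windows. Counted by gene over 27025 genes, the shares were 0.137% for the ERSE, 0.0444% for the ERSE-II and 35.5% for CCACG. They were 0.714% for the core and 4.5% for the composite. A match is a description of the letters and no measure of binding. Each match below is written 5′ to 3′ on its own strand, with the fixed letters in capitals and the spacer in lower case.
Hspa5 (chr2:34772025-34772043, + strand, position -65): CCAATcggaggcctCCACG
Hsp90b1, distal (chr10:86705638-86705656, - strand, position -212): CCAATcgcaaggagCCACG
Hsp90b1, proximal (chr10:86705533-86705551, + strand, position -107): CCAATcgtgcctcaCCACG
Calr (chr8:84847075-84847093, + strand, position -162): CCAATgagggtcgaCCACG
Canx (chr11:50325800-50325818, - strand, position -145): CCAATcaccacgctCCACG
Dnajc3 (chr14:118937827-118937845, + strand, position -105): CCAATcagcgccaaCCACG
Pdia6 (chr12:17266491-17266509, + strand, position -98): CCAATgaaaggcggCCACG
Creld2 (chr15:88819520-88819538, - strand, position -126): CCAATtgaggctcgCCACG
Syvn1 (chr19:6046532-6046550, + strand, position -44): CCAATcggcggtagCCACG
Derl3 (chr10:75893242-75893260, - strand, position -156): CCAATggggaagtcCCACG
Herpud1, ERSE-II (chr8:94386377-94386387, + strand, position -52): ATTGGgCCACG
Dnajb11, ERSE-II (chr16:22857852-22857862, + strand, position 8): ATTGGcCCACG

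Positions are those of the first base of the match along the gene, counted from the RefSeq start site. The promoters of Hsp90b1 and Herpud1 are shown because these genes carry matches and changed in opposite directions between the genotypes. Matches are in capitals. Each stretch ends before both the RefSeq start site and the annotated gene start. The stretch for Hsp90b1 is chr10:86705510-86705694 on the - strand and holds an ERSE in each orientation. The stretch for Herpud1 is chr8:94386179-94386428 on the + strand. Its capitals mark, in order, CCACG, the ATF4 composite on the opposite strand, and the ERSE-II.
Hsp90b1 promoter: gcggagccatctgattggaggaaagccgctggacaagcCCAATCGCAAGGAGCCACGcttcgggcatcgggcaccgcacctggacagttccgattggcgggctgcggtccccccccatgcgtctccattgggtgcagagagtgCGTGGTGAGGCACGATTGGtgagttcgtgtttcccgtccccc
Herpud1 promoter: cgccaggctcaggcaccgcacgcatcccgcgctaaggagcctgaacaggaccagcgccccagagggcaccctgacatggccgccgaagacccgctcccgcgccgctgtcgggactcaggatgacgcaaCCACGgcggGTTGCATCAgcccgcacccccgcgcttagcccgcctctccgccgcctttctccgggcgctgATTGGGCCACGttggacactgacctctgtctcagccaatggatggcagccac

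**Figure D1:**
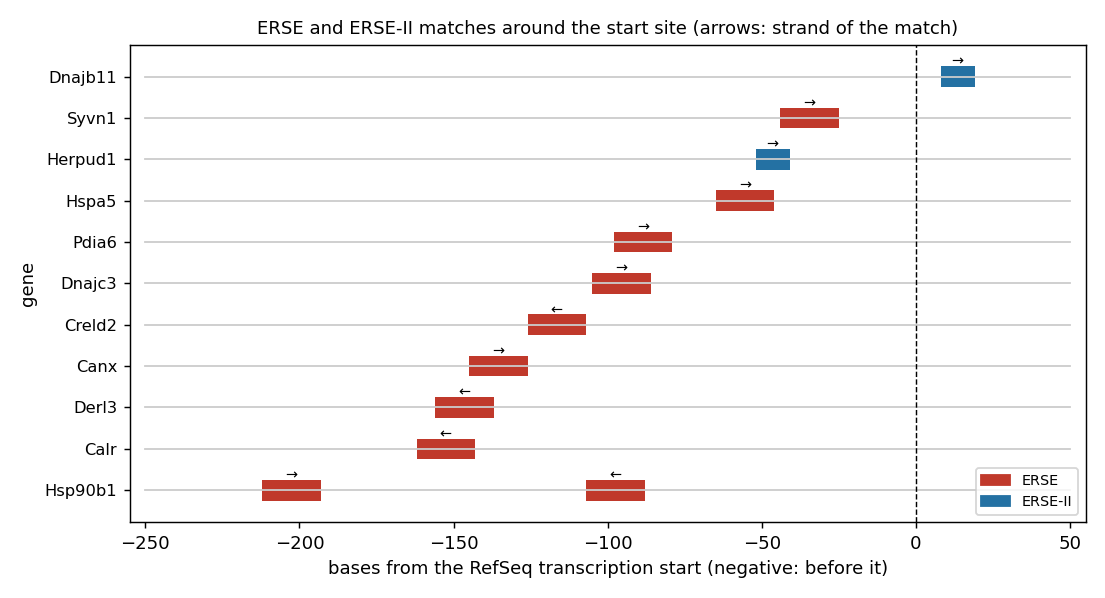
Positions of ERSE and ERSE-II matches in the promoter windows of the genes that hold one, with the distance from the RefSeq start site in bases on the horizontal axis and 1 gene per line. Bars are the matches, coloured by motif; every ERSE match lies before the start site, from -212 to -44, and the ERSE-II of Dnajb11 lies after it.

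Between the genotypes few of the 34 genes passed the test, in shares near those of all genes. In R502W control against WT control, 4 of the 34 genes rose (Hyou1, Atf6, Ppp1r15a and Hsp90b1), 1 fell (Herpud1) and 29 did not pass edgeR at an adjusted p under 0.05. Over all 15000 genes, 8.63% rose and 3.75% fell in this comparison. The median log2 fold change of the 34 was 0.11, with 25 above zero, and that of all genes was -0.01. The 4 R502W control libraries lay wholly above the 5 WT libraries for 8 of the genes and wholly below for 2, while 17.7% of all genes had groups that did not overlap in either direction. Besides the called genes, these were Hspa5, Sel1l, Dnajc3 and Ssr1 (higher) and P4hb (lower).

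**Figure D2:**
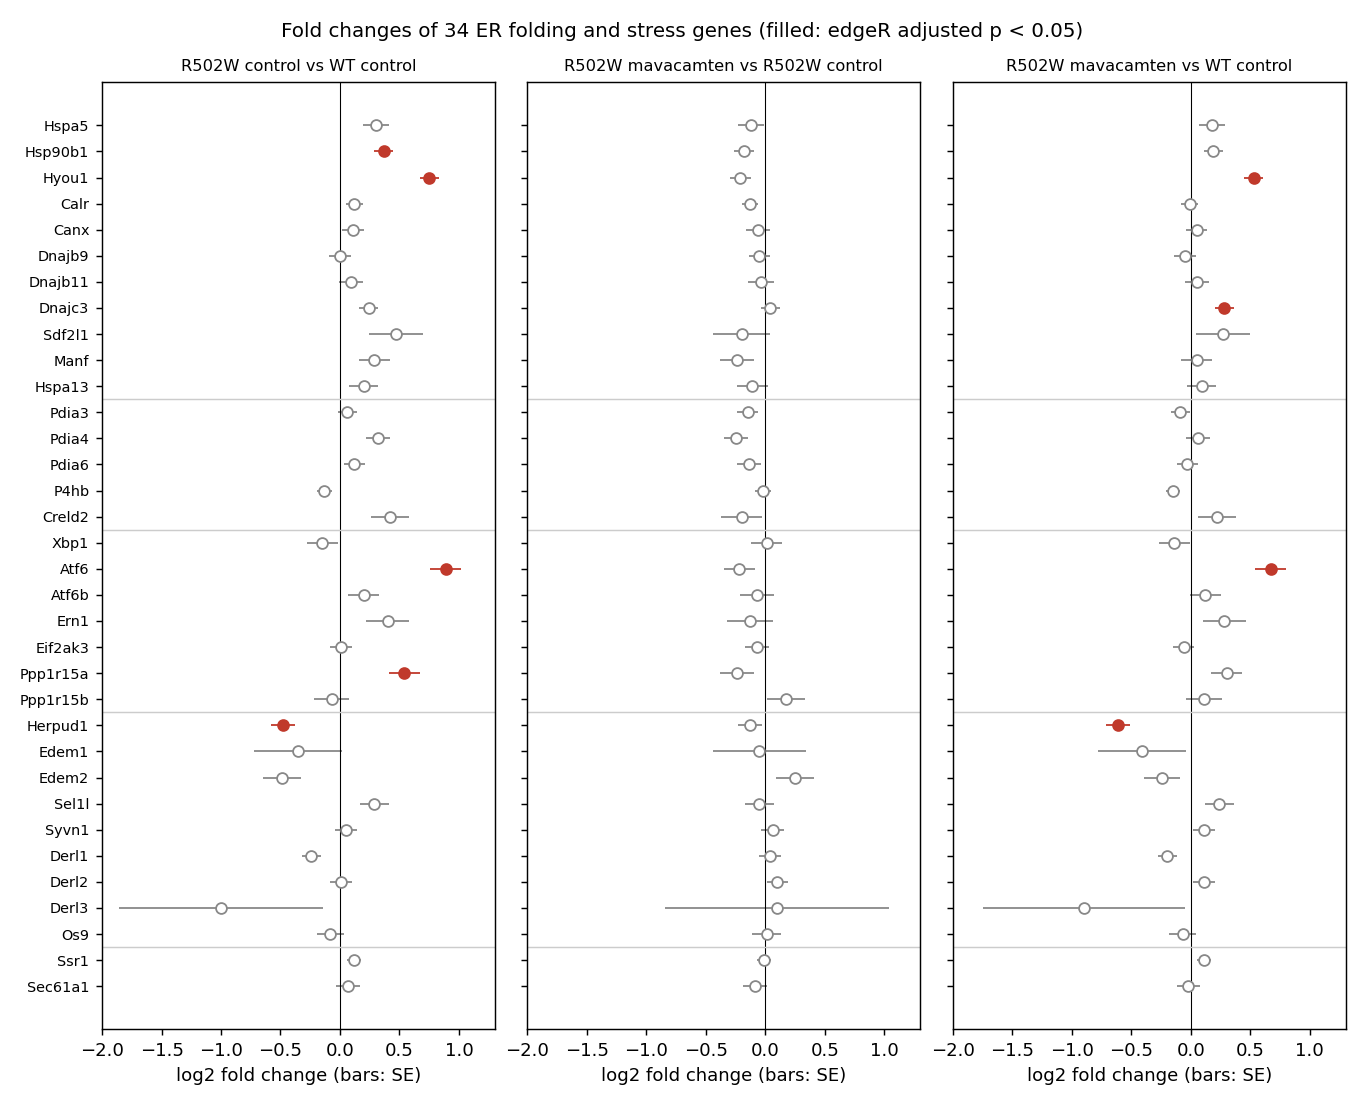
Log2 fold change of each of the 34 genes (horizontal axis) in the 3 comparisons, with genes ordered by role; points are edgeR estimates, bars are SE, and filled points passed the test. Atf6 at 0.89 and Hyou1 at 0.75 lie farthest to the right in the genotype comparison, and no point of the treatment comparison is filled.

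Chaperones and co-chaperones formed the largest group, with 11 genes, and 2 of them rose, beside 8.63% of all genes. Hyou1 (chr9:44379490-44392369 of GRCm38) encodes the ER chaperone GRP170, an exchange factor of BiP. Hyou1 stood at 42.7, 36.7, 38.1, 36.9 and 42.9 CPM in the WT libraries, at 69.4, 71.3, 64.5 and 59.3 CPM in R502W control and at 63.0, 51.9, 56.2 and 57.2 CPM in R502W mavacamten. Every R502W library, treated or not, was above every WT library. The level was 1.68-fold that of WT control in R502W control (log2 fold change 0.75 ± 0.08 SE, edgeR adjusted p = 0.000196). Leaving out each library in turn kept this call, with log2 fold changes from 0.67 to 0.79.

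Hsp90b1 (chr10:86690209-86705509) encodes GRP94, the HSP90 of the ER, and its promoter carries both ERSE matches printed above. Hsp90b1 stood at 251, 230, 253, 251 and 221 CPM in the WT libraries, at 347, 326, 297 and 278 CPM in R502W control and at 283, 270, 275 and 270 CPM in R502W mavacamten. All R502W libraries were above all WT libraries, and the treated libraries lay close together near the lower end of R502W control. Its log2 fold change between the genotypes was 0.37 ± 0.08 (edgeR adjusted p = 0.00867). The call was lost without R502W control 2, at 0.32 (adjusted p = 0.0515).

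Hspa5 encodes BiP, the HSP70 of the ER and the most abundant of the 34 per length, with 92.3 CPM per kb of exon in WT control. On the same scale P4hb (82.1), Herpud1 (78.2), Calr (73.1) and Hsp90b1 (59.8) came next, and Eif2ak3 (2.07) and Derl3 (0.286) were lowest. Hspa5 was at 390 ± 44.3 CPM (n = 5) in WT control and 482 ± 13.4 CPM (n = 4) in R502W control. The log2 fold change of 0.30 ± 0.11 did not pass the test (adjusted p = 0.0730), although the groups did not overlap. The treated libraries ran from 352 to 480 CPM and overlapped both. Dnajc3 (chr14:118937976-118981697) encodes P58IPK, a co-chaperone of BiP that also inhibits PERK. Dnajc3 stood at 50.9, 47.9, 54.6, 55.1 and 55 CPM in WT control, at 68.1, 64.9, 60.4 and 55.2 CPM in R502W control and at 67.2, 59.7, 64.7 and 63.8 CPM in R502W mavacamten. Both R502W groups were wholly above WT, the lowest R502W control library by a narrow margin. Its log2 fold change between the genotypes was 0.24 ± 0.08 (adjusted p = 0.0573), and it passed the test without R502W control 4 (0.29, adjusted p = 0.0362). Without WT control 2 it was at 0.17 (adjusted p = 0.142), and without the 4 libraries high in the fat gene Adipoq at 0.14 (adjusted p = 0.358).

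The other chaperones did not pass the test between the genotypes. Manf, a secreted ER stress protein, was at 0.29 ± 0.13 and Sdf2l1, a cofactor of the BiP cycle, at 0.47 ± 0.23. The lectin chaperones Calr and Canx, which hold glycoproteins during folding, were at 0.12 ± 0.07 and 0.11 ± 0.09, with Canx at 0.015 without WT control 2. Hspa13, an HSP70-like protein of microsomes, was at 0.20 ± 0.12, and at 0.068 without that library. The BiP co-chaperones Dnajb11 and Dnajb9 were at 0.09 ± 0.10 and 0.00 ± 0.09, with Dnajb9 at -0.065 without it. The median of the 11 was 0.24. Manf ran from 20.8 to 34.3 CPM in WT control, and its highest value there was in WT control 2. Without that library Manf was at 0.39 ± 0.10 and passed the test (adjusted p = 0.0205).

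None of the 5 disulfide isomerases and related genes passed the test between the genotypes, and their median was 0.12. At an unadjusted p under 0.05 there were 2, against 29.1% of all genes, and DESeq2 called Pdia4 higher and P4hb lower. These enzymes form and rearrange disulfide bonds in newly made proteins. Pdia4 was closest, at 0.32 ± 0.10 (adjusted p = 0.0510), with 32.1 ± 2.44 CPM (n = 5) in WT control and 40.0 ± 4.56 CPM (n = 4) in R502W control. It passed the test without WT control 3 (0.36, adjusted p = 0.0491) or R502W control 4 (0.38, adjusted p = 0.0349). Creld2, an ER protein with isomerase activity and an ERSE in its window, was at 0.42 ± 0.16 (adjusted p = 0.0979). Its WT libraries ran from 8.70 to 14.5 CPM, the highest again WT control 2, and without that library Creld2 passed the test at 0.53 ± 0.13 (adjusted p = 0.0202). Pdia6 was at 0.12 ± 0.09 and Pdia3, the isomerase that works with calnexin and calreticulin, at 0.06 ± 0.08. P4hb, which is also the β subunit of collagen prolyl 4-hydroxylase, was at -0.13 ± 0.06, with every R502W control library (208 to 221 CPM) just below every WT library (222 to 252 CPM).

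Of the 7 sensors and their switches, Atf6 and Ppp1r15a rose, beside 8.63% of all genes, and the median of the group was 0.20. Atf6 (chr1:170704674-170867771) had the largest rise of the 34. Its libraries stood at 94.2, 58.9, 85.2, 96.7 and 98.8 CPM in WT control, at 159, 167, 175 and 141 CPM in R502W control and at 144, 138, 141 and 128 CPM in R502W mavacamten. The lowest R502W library was above the highest WT library, and WT control 2 was the lowest of all 13. The level in R502W control was 1.85-fold that of WT control (log2 fold change 0.89 ± 0.13, edgeR adjusted p = 0.00110). Without WT control 2 the log2 fold change was 0.74 (adjusted p = 7.38e-05), the lowest value over the libraries left out in turn.

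Ppp1r15a (chr7:45522916-45526268) encodes GADD34, the phosphatase subunit that is induced by stress and reverses the phosphorylation of eIF2α. It stood at 17.4, 21.1, 21.3, 19.3 and 20.3 CPM in WT control, at 32.1, 31.6, 23.9 and 27.8 CPM in R502W control and at 30.9, 22.2, 19 and 25.5 CPM in R502W mavacamten. R502W control was wholly above WT, and the treated libraries spread over both ranges. The log2 fold change between the genotypes was 0.54 ± 0.13 (edgeR adjusted p = 0.0182), and the call was lost without R502W control 1 (0.48, adjusted p = 0.0608) or R502W control 2 (0.46, adjusted p = 0.0816). Its constitutive partner gene Ppp1r15b, which encodes CReP, was at -0.07 ± 0.15.

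The other sensors did not pass the test. Ern1 encodes IRE1α and stood at 23.6, 11.8, 21.7, 24.0 and 26.7 CPM in WT control, at 32.1, 29.0, 28.2 and 24.9 CPM in R502W control and at 23.1, 25.5, 30.7 and 25.4 CPM in R502W mavacamten. The groups overlapped, and WT control 2 was again the lowest. Its log2 fold change was 0.40 ± 0.18 (adjusted p = 0.155), and 0.21 without that library. Eif2ak3, the gene of PERK, stood at 12.2, 11.5, 13.2, 11.4 and 13.9 CPM in WT control, at 12.5, 12.8, 11.9 and 12.8 CPM in R502W control and at 12.6, 11.3, 12.9 and 10.8 CPM in R502W mavacamten. The 3 ranges overlapped, and the log2 fold change of 0.01 ± 0.09 had an interval from -0.17 to 0.19, and was -0.053 without WT control 2. Xbp1, the target of IRE1 splicing, stood at 54.5, 83.0, 61.4, 53.8 and 51.9 CPM in WT control, at 55.6, 55.1, 52.0 and 56.3 CPM in R502W control and at 60.8, 48.1, 53.0 and 58.8 CPM in R502W mavacamten. WT control 2 stood above the rest, and Xbp1 was at -0.15 ± 0.13 with that library and at -0.05 without it. Atf6b, the paralogue of Atf6, was at 0.20 ± 0.13.

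**Figure D3:**
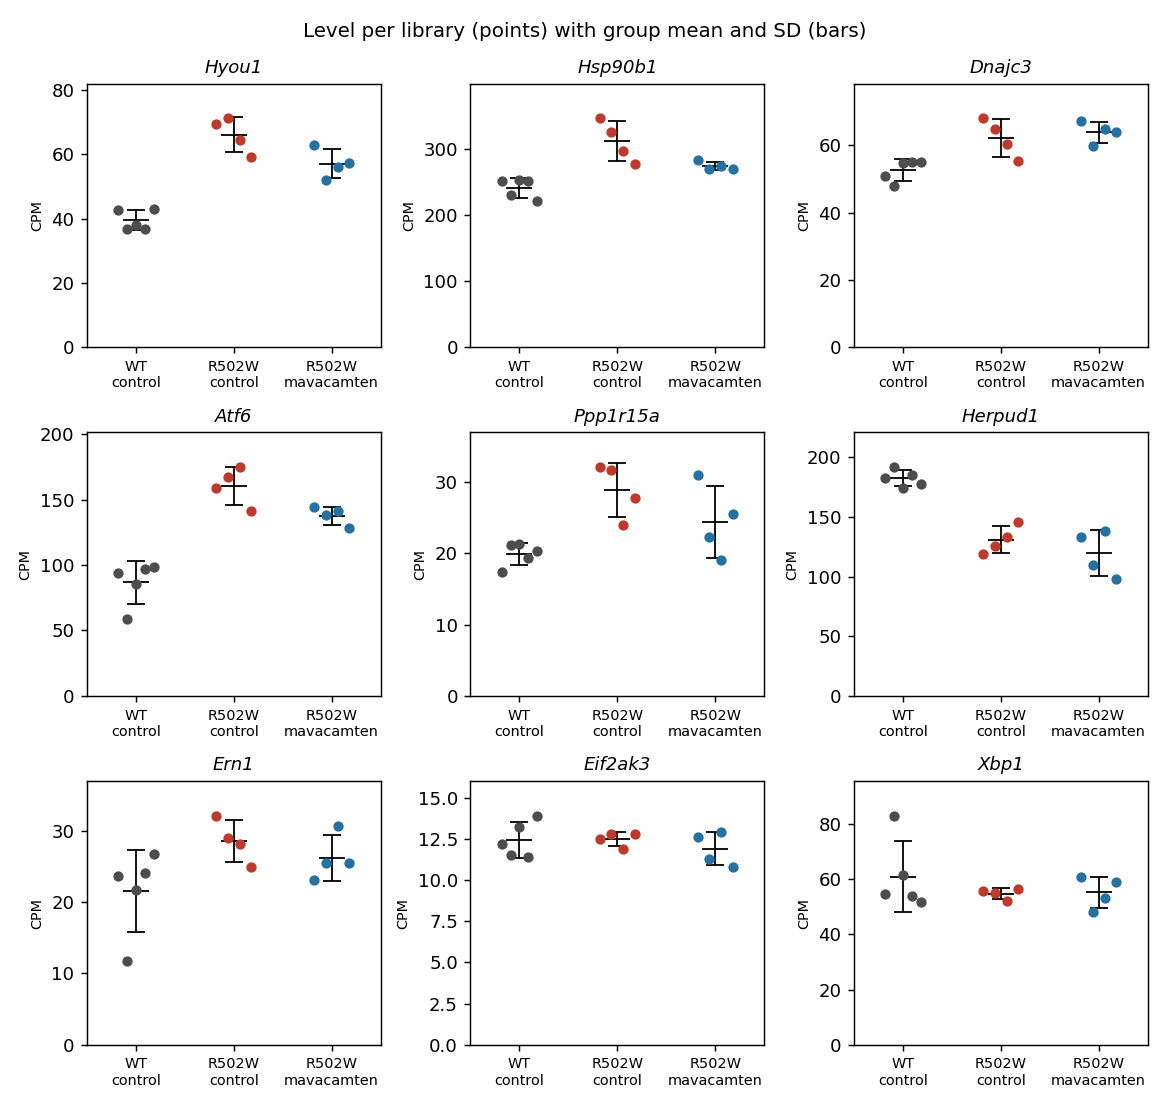
Level of Hyou1, Hsp90b1, Dnajc3, Atf6, Ppp1r15a, Herpud1, Ern1, Eif2ak3 and Xbp1 in each of the 13 libraries, by group. The linear axis is in CPM and starts at 0. Points are libraries, and bars are group mean and SD. For Hyou1, Hsp90b1, Dnajc3 and Atf6 every R502W library lies above every WT library, and for Herpud1 every one lies below.

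Of the 9 ERAD genes, 1 fell and none rose by edgeR, beside 3.75% and 8.63% of all genes. Their median was -0.24, and 4 had an unadjusted p under 0.05, beside 29.1% of all genes. DESeq2 called 3 lower (Herpud1, Edem2 and Derl1) and 0 higher, and of all 15000 genes it called 1069 lower and 1434 higher. Herpud1 (chr8:94386438-94395377) encodes HERP, an ER membrane protein that helps assemble the HRD1 ubiquitin ligase complex. It stood at 183, 192, 174, 185 and 178 CPM in WT control, at 119, 126, 133 and 146 CPM in R502W control and at 133, 110, 138 and 98.2 CPM in R502W mavacamten. Every R502W library was below every WT library. Its log2 fold change between the genotypes was -0.48 ± 0.10 (edgeR adjusted p = 0.00872), and leaving out each library in turn kept the call, from -0.53 to -0.43. Herpud1 is one of the short genes, with 2.33 kb of exon. With the trend of fold change on gene length removed it was at -0.36 and did not pass (adjusted p = 0.0756).

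Within the same HRD1 complex the other genes differed in direction and did not pass edgeR's test. Sel1l, its adaptor, was at 0.29 ± 0.12 (adjusted p = 0.112), and at 0.15 (adjusted p = 0.122) without WT control 2, its outlying WT library. Syvn1, the ligase HRD1 itself, was at 0.05 ± 0.09. The derlins, which form the channel part of the complex, were at -0.24 ± 0.08 for Derl1 (edgeR adjusted p = 0.0753, DESeq2 adjusted p = 0.0226) and 0.01 ± 0.09 for Derl2, the latter at 0.0019 without WT control 2. Derl3 had between 0 and 20 counts in any library, so its -1.0 ± 0.86 (-0.60 without WT control 2) says little at this depth. Os9, a lectin that delivers glycoproteins to the complex, was at -0.08 ± 0.11, and at -0.027 without WT control 2. Edem2, a mannosidase that marks glycoproteins for degradation, was at -0.49 ± 0.16 (adjusted p = 0.0547), with 12 ± 2.75 CPM (n = 5) in WT control and 8.53 ± 0.50 CPM (n = 4) in R502W control. Edem2 passed the test as lower without WT control 1 (-0.61, adjusted p = 0.0173) or WT control 4 (-0.58, adjusted p = 0.0405), with RLE factors (adjusted p = 0.0457) and with DESeq2 (adjusted p = 0.0200). Without the libraries high in Adipoq it was at -0.31 (adjusted p = 0.260).

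Edem1, a related mannosidase-like protein, was the gene most dependent on 1 library. Its WT libraries ran from 12 to 21.7 CPM except WT control 2 at 57.8 CPM, and R502W control ran from 17.4 to 22.9 CPM. Edem1 was at -0.35 ± 0.37 with that library and at 0.18 ± 0.20 without it, neither of which passed (adjusted p = 0.561 and 0.627). Derl3 had its highest value, 1.20 CPM, in the same library. WT control 2 also held the most B, plasma and T cell marker RNA, and the part of that tissue in the values of Edem1, Xbp1, Creld2, Manf and Derl3 was not tested. Of the translocation genes, Ssr1 (a subunit of the translocon-associated protein complex) was at 0.12 ± 0.06 with groups that did not overlap, and at 0.060 without WT control 2. Sec61a1 (the pore of the translocon) was at 0.07 ± 0.10.

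**Figure D4:**
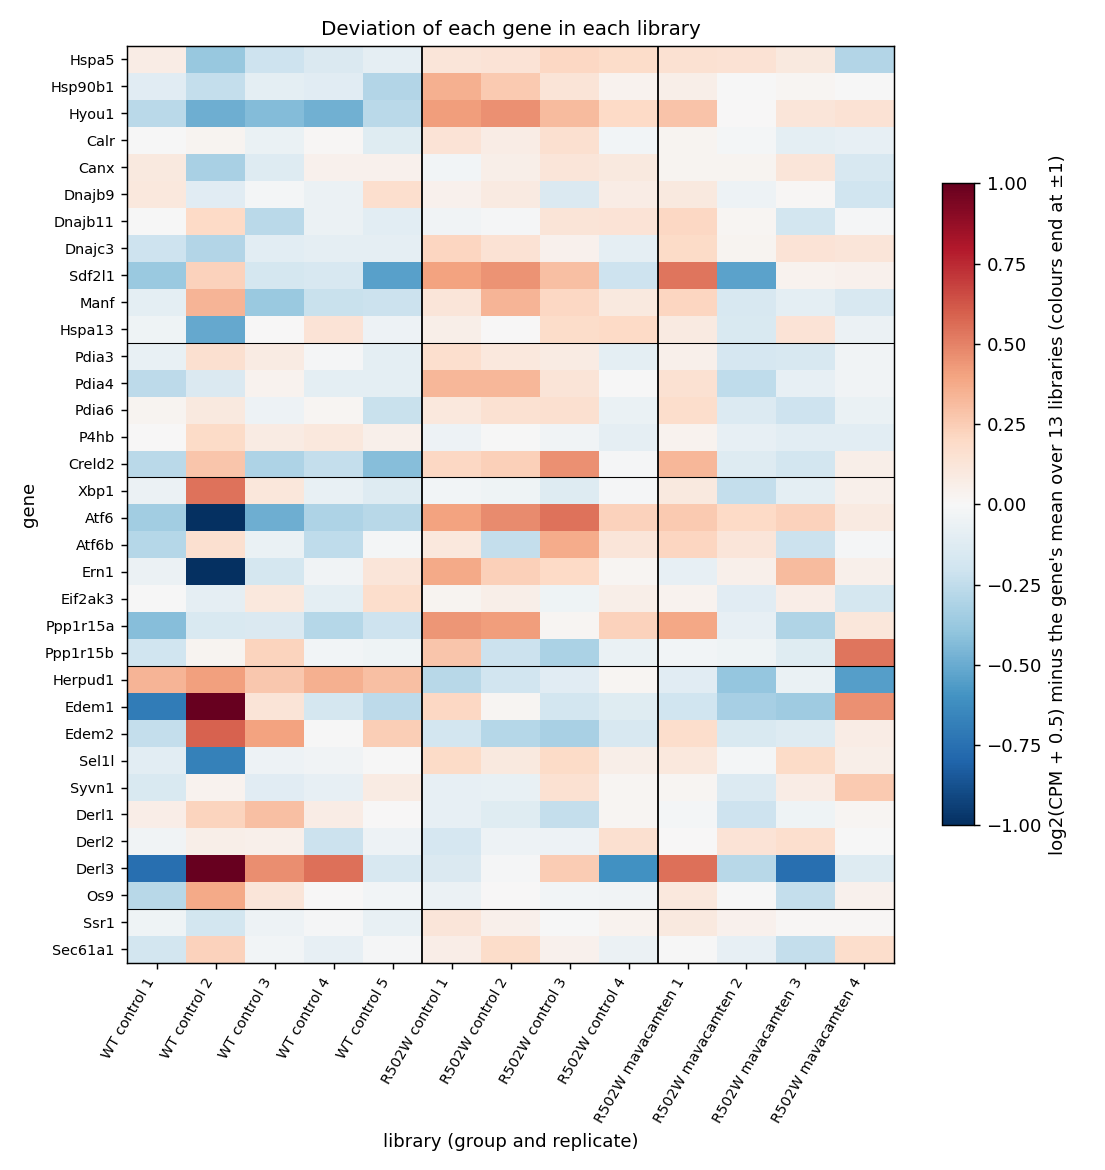
Deviation of each of the 34 genes (rows, by role) from its own mean over the 13 libraries (columns, by group), in log2(CPM + 0.5), red above and blue below the mean, with colours ending at ±1. WT control 2 departs from the other WT libraries in both directions, with Edem1 red and Ern1 blue.

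The summed level of the set was higher in R502W control, from 2762 to 2905 CPM, than in WT control, from 2548 to 2617 CPM, and overlapped both in R502W mavacamten, from 2540 to 2838 CPM. Hspa5 alone gave between 12.9% (WT control 2) and 18.1% (R502W mavacamten 2) of the sum. Over all genes, 8.63% rose and 3.75% fell between the genotypes. Of the 13 genes of the set known as targets of ATF6 or XBP1, 2 rose and 1 fell, with a median of 0.29. Among the 9 genes with an ERSE in their window, 1 rose (Hsp90b1), with a median of 0.12. Among the 18 with a window and no ERSE, 1 rose and 1 fell, with a median of 0.03. The other genes of the genome with an ERSE gave 9 tested genes, 4 of them above zero, with a median of -0.08. Hyou1 and Atf6 have no window in this table.

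Of the 13 marker sums, 2 did not overlap between the genotypes. Endothelial sums were at 643 to 818 CPM in WT control and 915 to 1051 CPM in R502W control, and Schwann cell and nerve sums at 10.8 to 16.1 CPM and 7.15 to 10.2 CPM. Cardiomyocyte marker sums ran from 47200 to 68662 CPM and from 68508 to 78491 CPM. Fibroblast marker sums overlapped, at 2875 to 3825 and 3268 to 3780 CPM. No marker was at 0 in every library, though Sftpc of the lung list was above 0 only in R502W mavacamten 1. The part of cell composition in the calls of Hyou1, Atf6, Hsp90b1, Ppp1r15a and Herpud1 was not tested. Fold changes between the genotypes rose with exonic length over all genes (Spearman rho 0.34 over 14984 genes) and by 0.20 over the 34. Length varies with many gene properties, genes are not independent replicates, and the cause was not tested.

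**Figure D5:**
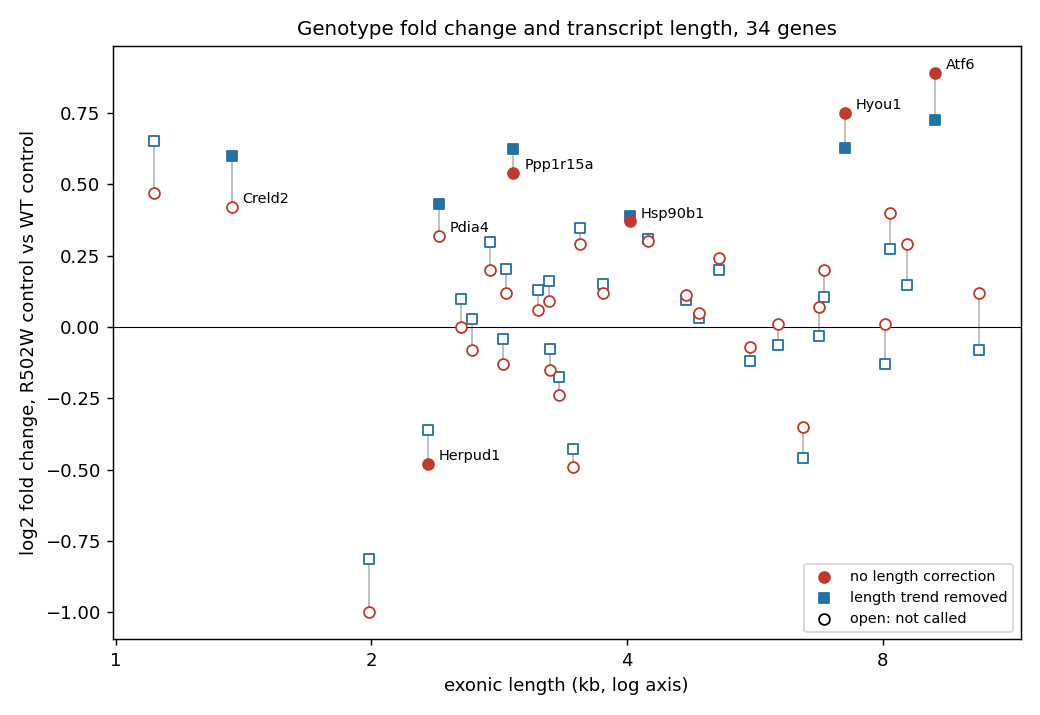
Log2 fold change between the genotypes (vertical axis) against exonic length in kb on a log axis, for the 34 genes, before (red circles) and after (blue squares) the length trend was removed; filled symbols passed the test. Atf6 (9.23 kb) and Hyou1 (7.23 kb) stay filled, and Herpud1 (2.33 kb) turns open.

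With the length trend removed, 6 of the 34 rose: Hyou1 (0.63), Atf6 (0.73), Ppp1r15a (0.62), Hsp90b1 (0.39), Pdia4 (0.43) and Creld2 (0.60). None fell.

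Under mavacamten none of the 34 genes changed against R502W control by edgeR, and none of the 15000 genes did (0% higher and 0% lower). At an unadjusted p under 0.05, 3 of the 34 and 525 of all genes (3.50%) were found, and DESeq2 called 6 of all genes and none of the 34. The 3 were Pdia4 at -0.25 ± 0.10, Hyou1 at -0.21 ± 0.09 and Hsp90b1 at -0.18 ± 0.08, each with an edgeR adjusted p of 1. Their intervals ran from -0.46 to -0.04, from -0.39 to -0.04 and from -0.35 to -0.02. The median of the 34 was -0.07, with 9 above zero, and that of all genes was 0.00.

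Treated libraries of Hyou1 (51.9 to 63.0 CPM) overlapped R502W control (59.3 to 71.3 CPM). For Pdia4 the ranges were 29.0 to 38.7 CPM in treated and 34.5 to 43.8 CPM in untreated R502W hearts. Groups did not overlap for 1 of the 34, Edem2, which was higher in all treated libraries (9.07 to 11.5 CPM against 7.99 to 9.01 CPM, log2 fold change 0.25 ± 0.16), and for 2.87% of all genes. Among the other genes of the set the values ran from -0.24 to 0.17. By role, the medians were -0.12 for chaperones, -0.15 for disulfide isomerases, -0.07 for sensors, 0.04 for ERAD and -0.05 for translocation. Atf6 was at -0.22 ± 0.13, Ppp1r15a at -0.24 ± 0.14, Manf at -0.24 ± 0.14 and Herpud1 at -0.13 ± 0.10. The interval for Atf6, from -0.49 to 0.05, includes 0, so these libraries do not show whether its level changed. Treated library 1 was the highest of its group for 22 of the 34 genes.

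Treated R502W hearts were then set against WT hearts. This comparison shares the treated libraries with the treatment comparison and the WT libraries with the genotype comparison, so the 3 are not independent. In it 3 of the 34 rose (Hyou1, Atf6 and Dnajc3), 1 fell (Herpud1) and 30 did not pass, while 5.93% of all genes rose and 2.29% fell. The median of the 34 was 0.06, with 20 above zero, and that of all genes was 0.00. Groups did not overlap for 5 higher genes (the called ones, Hsp90b1 and Ssr1) and 1 lower, against 12.3% of all genes.

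Hyou1 was 1.45-fold as high as in WT control (0.53 ± 0.08, edgeR adjusted p = 0.00411) and Atf6 1.59-fold (0.67 ± 0.13, adjusted p = 0.0108). Herpud1 was at 0.656 of the WT level (-0.61 ± 0.10, adjusted p = 0.00526). These calls were kept when each library was left out in turn, from 0.45 to 0.56 for Hyou1, from 0.53 to 0.72 for Atf6 and from -0.70 to -0.56 for Herpud1. Dnajc3 was at 0.28 ± 0.08 (adjusted p = 0.0420) and lost its call in 11 of the 13 fits with 1 library left out (0.21 to 0.29). Hsp90b1 was at 0.19 ± 0.08 and Ppp1r15a at 0.30 ± 0.13, neither of which passed (adjusted p = 0.147 and 0.171).

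Genes of the same pathways outside the set gave a mixed picture between the genotypes, where 8.63% of all genes rose and 3.75% fell. Of 31 other ER folding enzymes tested, 1 rose and 3 fell, with a median of -0.04. Uggt1, the glycoprotein folding sensor, was at 0.43 ± 0.08, and Sdf2, Fkbp7 and Cnpy2 were at -0.36 ± 0.09, -0.48 ± 0.12 and -0.34 ± 0.10. Of 14 collagen folding and modification genes, 6 rose and 3 fell, with a median of 0.12. P4ha1, the catalytic subunit that pairs with P4hb, was at 0.77 ± 0.11, while P4hb itself was at -0.13. Serpinh1, the collagen chaperone HSP47, was at 0.66 ± 0.10, P4ha2 at 0.61 ± 0.12 and P3h2 at 0.84 ± 0.17.

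Of 23 tested targets of the PERK and ATF4 branch, 7 rose and none fell, beside 8.63% and 3.75% of all genes, with a median of 0.07. Gdf15, a stress-induced cytokine, rose from 0.520 ± 0.213 to 3.27 ± 1.18 CPM (2.63 ± 0.43, edgeR adjusted p = 0.00211). Mthfd2, a mitochondrial folate enzyme, was at 1.63 ± 0.29, the amino acid transporter gene Slc7a5 at 0.69 ± 0.15 and the proline synthesis gene Aldh18a1 at 0.48 ± 0.11. In treated against WT hearts edgeR and DESeq2 called 0 of this list, with 5 at an unadjusted p under 0.05, against 25.8% of all genes. The PERK gene itself, Eif2ak3, was at 0.01.

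Of 27 other ERAD genes, 2 rose (Dnajb14 at 0.47 ± 0.10 and Ubxn4 at 0.38 ± 0.08) and 1 fell (Tmub2 at -0.29 ± 0.08). Of 31 genes of the translocon, signal peptidase and oligosaccharyltransferase, 2 rose and 4 fell, with a median of -0.14, and DESeq2 called 2 higher and 9 lower. Magt1 was at 0.57 ± 0.13 and Spcs3 at 0.31 ± 0.07, against -0.41 ± 0.09 for Spcs1 and -0.34 ± 0.09 for Sec11a. Of 28 genes of ER to Golgi transport, Sec16a (0.37 ± 0.10) and Golga2 (0.28 ± 0.07) rose and Kdelr1, the receptor that retrieves ER chaperones, fell (-0.36 ± 0.07). None of 16 other sensors and processing proteases was called by edgeR, with 6 at an unadjusted p under 0.05 beside the 29.1% of all genes, while DESeq2 called 1 higher and 2 lower. None of these lists held a gene called by edgeR or DESeq2 in the treatment comparison. There, 7 of 23 PERK and ATF4 targets and 5 of 14 collagen genes had an unadjusted p under 0.05. This compares with 0 or 1 in each other list and 3.5% of all genes. The log2 fold changes ran from -1.57 to 1.25 (median -0.18) for the PERK and ATF4 targets, with 6 of 23 above zero. For the collagen genes they ran from -0.54 to 0.20 (median -0.07), with 4 of 14 above zero. All treated libraries lay below all R502W control libraries for 5 of the 23 targets and 2 of the 14 collagen genes. They lay wholly above for 0 in either list, while 2.87% of all genes did not overlap in either direction. In treated against WT hearts the lists held 1 higher and 2 lower folding enzymes, 2 higher and 1 lower collagen genes, 2 higher ERAD genes and 2 higher and 4 lower translocon genes. ER to Golgi transport held 1 in each direction, while 5.93% of all genes rose and 2.29% fell. Creb3l1, a sensor of the ATF6 type, rose by 0.49 ± 0.13 in these hearts.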

How the data were processed

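RNA of whole mouse hearts was sequenced, and the deposited table holds expected counts for each Ensembl gene and library, made by the authors with RSEM according to the submitters' processing notes. These notes also name cutadapt, FastQC, DESeq2 and the build GRCm38. Neither the aligner nor the strand setting is given in the sources used here. The deposited values (5.76% fractional) were rounded, and edgeR 4.0.16 was run in R 4.3.3. filterByExpr (minimum count 10, minimum total 15) left 15000 genes. After TMM scaling, edgeR's quasi-likelihood test used all 13 libraries with a mean for each of the 3 groups. P-values were adjusted by Benjamini-Hochberg over all genes, with changes called under 0.05. The biological coefficient of variation was 0.232.

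Symbols, coordinates and exonic lengths came from GENCODE M21 (55144 of 55471 IDs matched, and 106 symbols were shared by more than 1 ID). Promoter windows came from RefSeq, GRCm38.p6.

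The 34 genes and all lists were chosen with earlier results of these data known. Levels in every library are given for genes called in any comparison and for Atf6, Ern1, Eif2ak3 and Xbp1. The other genes are given by log2 fold change, some with means or ranges. At most 4 called genes per list and comparison are named, those with the smallest p. Intervals are estimates ± 2 SE on the model's scale. Samples are numbered in the labels, and each library name holds a further number of its own. No label states that these numbers stand for separate mice. The p-values therefore reflect the spread among libraries, which may be technical. Libraries with the same sample number did not deviate together (correlations from -0.323 to 0.253). Those with different numbers ran from -0.411 to 0.426, so no pairing by number was seen, but a check this variable cannot exclude one. No 2 libraries of a group agreed within sampling noise (lowest chi-square per degree of freedom 7.60). The count test was run on simulated data with known changes, and the outcome is not given here. Changes as small as those of most of the 34 genes were not simulated. Alternatives were RLE factors, no filter, only the 2 groups compared, the length trend removed, a replicate block, DESeq2 1.42.0 and each library left out. Leaving out the 3 libraries under 50 CPM of Bmp10, or the 4 over 50 CPM of Adipoq, was added after the data were seen.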

Additional observations from a re-analysis of the deposited data

Results flagged for a closer look

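In 7 of 102 sets of 1 gene in 1 group, a single library stood apart from the others by Dixon's criterion at 95%, which chance alone gives in about 1 set in 20. WT control 2 stood apart for 3 genes. Edem1 was at 57.8 CPM there, against 12 to 21.7 CPM in the other WT libraries, and Creld2 at 14.5 CPM, against 8.70 to 10 CPM. Sel1l was at 49.8 CPM there, against 74.1 to 79.7 CPM. R502W mavacamten 4 also stood apart for 3 genes. Hspa5 was at 352 CPM in it, against 461 to 480 CPM, Edem1 at 27.4 CPM, against 15.4 to 17.2 CPM, and Ppp1r15b at 44.0 CPM, against 27.7 to 29.6 CPM. Manf was at 31.5 CPM in R502W mavacamten 1, against 24.2 to 25.2 CPM in the other treated libraries.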

How the results depend on the processing

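Between the genotypes the count of called genes among the 34 was 5, and it was 2 with the replicate block, 9 with DESeq2, 2 without the libraries low in Bmp10, 3 without those high in Adipoq, and 3 to 7 with each library left out. Genes called higher numbered 4, and 2 with the block, 2 without the libraries low in Bmp10, 2 without those high in Adipoq, and 2 to 6 with a library left out. Genes called lower numbered 1, and 2 with RLE factors, 0 with the length trend removed, 0 with the block, 4 with DESeq2, 0 without the libraries low in Bmp10, and 1 to 2 with a library left out. The lowest total, 3, came without R502W control 2, and 7 came without WT control 2 or R502W control 4. In treated against WT hearts the count was 4, and 2 with only the groups compared and 1 without the libraries low in Bmp10; the higher calls were 3, 1 and 0, and the lower call became 2 with DESeq2. Under mavacamten the count was 0 in every setting. The calls of Hyou1 and Atf6 between the genotypes and of Herpud1 in treated against WT hearts held in every setting run. Hyou1 in treated against WT hearts lost its call without the libraries low in Bmp10 (0.53, edgeR adjusted p = 0.0573). Atf6 lost it there too (0.65, 0.0913) and with only the 2 groups compared (0.64, 0.0536). Herpud1 between the genotypes lost its call with the block (-0.48, 0.0501) and without the libraries low in Bmp10 (-0.45, 0.0511). Hsp90b1 lost its call with the block (0.34, 0.0586) and without the libraries low in Bmp10 (0.33, 0.0691) or high in Adipoq (0.29, 0.0685), as did Ppp1r15a (0.53, 0.0618; 0.51, 0.0642; 0.52, 0.0792). Dnajc3 in treated against WT hearts lost its call in all 3 of these settings, with RLE factors, with no filter, with only the 2 groups compared and with the length trend removed.

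No called gene reversed. Signs of genes that were not called changed in some setting for 10 genes between the genotypes, 13 under mavacamten and 14 in treated against WT hearts. Over all genes, 1856 were called between the genotypes (1294 higher). DESeq2 called 2503 (1434 higher), and the counts were 974 with the length trend removed and 963 with the block, and there were 391 higher and 111 lower without the libraries low in Bmp10. In treated against WT hearts 1232 were called, and 439, 349 and 105 in those last settings, 740 with no filter, 186 with only the 2 groups compared and 616 without the libraries high in Adipoq. With each library left out the counts ran from 886 (without R502W control 2) to 1878 and from 381 (without R502W mavacamten 2) to 1199. The causes of these differences were not tested. Depth limits Derl3, with at most 20 counts in a library. The SE of the 34 genes ran from 0.06 (Ssr1) to 0.94 (Derl3) on the log2 scale, which limits what could be called.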
